A study of Mus musculus with 35 samples.

Results

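The amino acid transporter families comprise the solute carrier genes of families Slc1, Slc3, Slc6, Slc7, Slc36, Slc38 and Slc43. Members were taken by symbol, as every gene of the induction table named for 1 of these families, the letter a and a number. This gave 61 of the 44853 genes of that table, and 26 of them were also among the 6275 genes of the siRNA table. Slc6a20a and Slc6a20b carry a further letter and were not taken. RNA-seq was obtained from 35 libraries of mouse cells. The induction series followed KH2 embryonic stem (ES) cells (C57BL/6 x 129/Sv) carrying a doxycycline (Dox) inducible cassette for tagged GATA6, the transcription factor that drives primitive endoderm (PrE). These cells were untreated (0 h) or kept in Dox at 1 µg/mL for 16, 24, 48, 72, 96 or 168 h, with 3 libraries per group. The reference was 2 libraries of untreated wild-type XEN cells (line X10, CD1), an extra-embryonic endoderm line of another strain that carries no cassette. For the siRNA series, 12 libraries came from inducible cells after 48 h of Dox, 6 given a non-targeting siRNA pool (siCTL) and 6 an siRNA pool against Oct4, the product of Pou5f1 (siOct4). The siRNA series was made in 1 clone, and the clone of the induction series is not given in the sources used here. The inducible cells grew on mouse embryonic fibroblast feeders, which were removed by adsorption before lysis. The study describes the induction libraries as independent replicates and the 6 knockdowns as independent experiments.

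Amino acid carriers set which amino acids a cell takes up, exchanges or releases. The Slc7 light chains work in pairs with a heavy chain, Slc3a2 or Slc3a1, which brings them to the plasma membrane, whereas the cationic carriers of Slc7 work alone. Slc38 and Slc1 carriers use sodium to concentrate small neutral or acidic amino acids, and much of the Slc6 family serves neurotransmitters and osmolytes. Mouse ES cells are known for a high demand for threonine and glutamine, and endoderm of the yolk sac for its uptake and transfer of nutrients.

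Values are TPM, which scale each library to the same sum and allow for gene length, so levels can be compared between genes. The number of reads is not kept in TPM and depth is unknown. Cassette and knockdown were checked first. Gata6 was at 0.193 to 0.375 TPM at 0 h, 129.3 to 138.5 TPM at 16 h and 317.3 to 369.6 TPM at 168 h. Pou5f1 was at 781.8 to 1193.8 TPM with siCTL and 281.6 to 386.6 TPM with siOct4. The summed level of 10 ES markers was 10224, 2086 and 20.4 TPM at 0 h, at 168 h and in XEN cells, in the last of which Esrrb and Tdgf1 were at 0. The summed level of 10 PrE and XEN markers was 48.6, 14159 and 6364 TPM in these groups. In such bulk samples, fewer cells of a type and less RNA per cell cannot be told apart. Of 12 feeder fibroblast markers, all were detected in each group of the induction series, and their summed level was 44.5 to 128.7 TPM at 0 h, 140.2 to 301.9 TPM at 168 h and 126.5 to 133.8 TPM in XEN cells. Their part in the results below was not tested.

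Most of the expressed amino acid carriers changed level as ES cells were driven towards PrE, and they did so in both directions. Of the 61 members, 36 reached a mean of 1 TPM in at least 1 group of the induction series and were tested. Tests were made with limma on log2(TPM + 1) across all 15057 genes that passed the same filter, and a gene was called at an adjusted p-value under 0.05 with an absolute log2 fold change above 1. For genes near the limit of detection this scale makes a fold change look smaller than it is. After 168 h of Dox, 14 members were higher and 10 lower than at 0 h, or 66.7% of those tested, beside 39.1% of all genes tested (22.6% higher and 16.5% lower). Some members passed the filter only through a group where they were high and so had to differ to be tested. Of 21 members at 1 TPM or more in all 8 groups, 13 were called at 168 h. The share of all genes under that filter was not counted. The median log2 fold change at 168 h was 0.63 over the members tested and 0.09 over all genes.

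The carriers that moved first were few. At 16 h, 1 member was higher (Slc7a6) and 3 were lower, Slc7a3 and Slc38a5 among them, beside 2.77% of all genes called (1.97% higher and 0.804% lower). At 24 h, Slc7a1 and Slc7a2 joined Slc7a6 among 3 higher members and 2 were lower, beside 5.68% of all genes (3.24% and 2.44%). At 48 h, 9 were higher and 3 lower, beside 16.4% of all genes (9.14% and 7.26%). At 72 h the counts were 10 and 4, beside 26.2% (14.7% and 11.5%), and at 96 h again 10 and 4, beside 29.5% (15.4% and 14.1%). Over the 6 Dox times, 16 members were called only as higher, 11 only as lower and 0 in both directions. The same counts over all genes were not made. These comparisons share the 0 h libraries. Scaling libraries by the median of ratios in place of TPM gave a median over all genes of -0.04 at 168 h and member counts of 12 higher and 10 lower, beside 38.6% of all genes (19.1% and 19.6%).

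**Figure D1:**
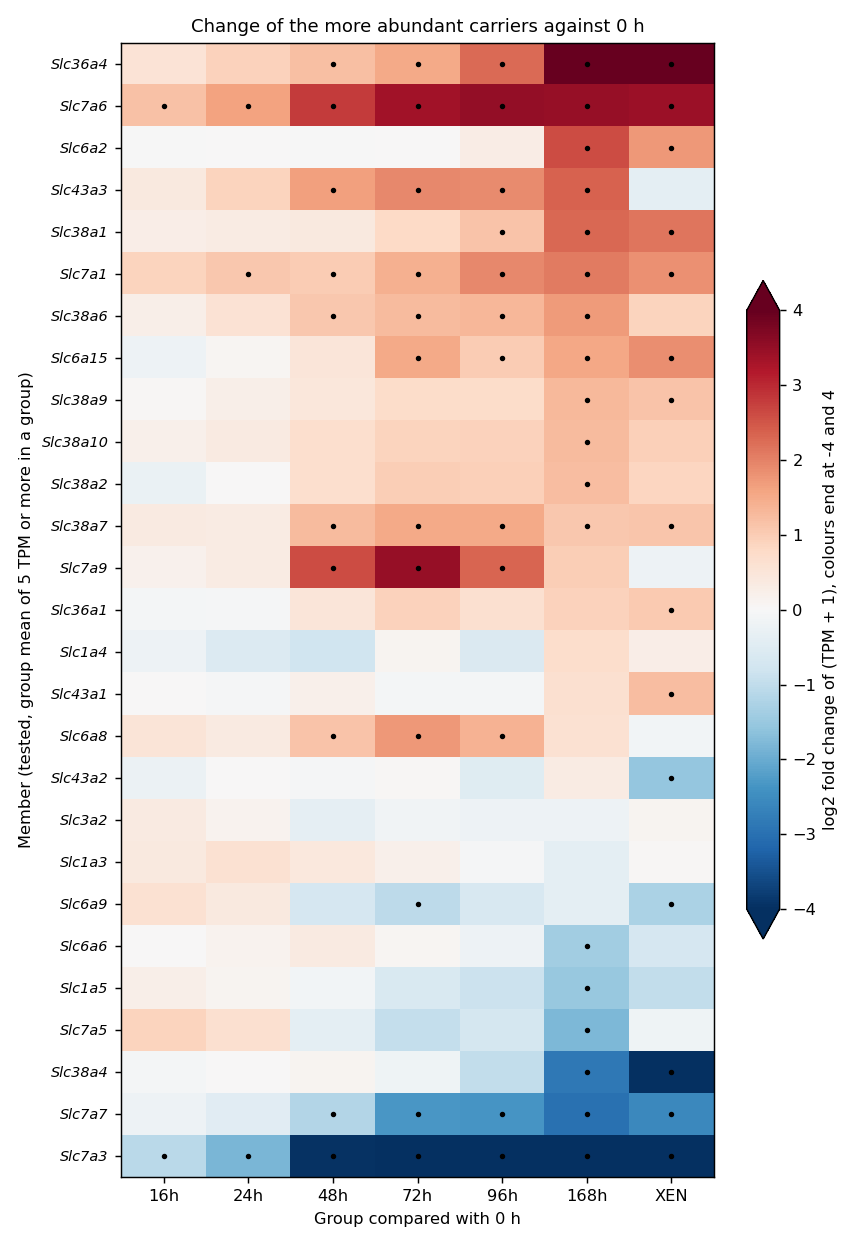
Log2 fold change of (TPM + 1) against 0 h for the 27 tested members with a mean of 5 TPM or more in a group (rows, ordered by the change at 168 h) in each Dox group and in XEN cells (columns). Red is higher, blue is lower, and a dot marks a member called by limma. The heat map shows Slc7a6 called as higher and Slc7a3 as lower at all 6 Dox times, and Slc7a9 and Slc6a8 called from 48 to 96 h alone among the Dox times.

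The summed level of all 61 members was higher at 168 h than at 0 h, and the genes that made it up changed. The sum was 1177 to 1243 TPM at 0 h, 1489 to 1575 TPM at 168 h and 1481 to 1500 TPM in XEN cells. At 0 h, Slc3a2, Slc7a3, Slc38a2, Slc7a5 and Slc7a7 led and together held 60.5% of the sum. At 168 h the leaders were Slc38a2, Slc7a6, Slc3a2, Slc38a1 and Slc7a1, with 70.8% of the sum, and these same genes led in XEN cells with 68.5%. Mean levels of Slc7a6 and Slc7a1 were 19.2 and 30.4 TPM at 0 h and 226.4 and 130.5 TPM at 168 h. This is a description of group means, with no test over the sum.

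**Figure D2:**
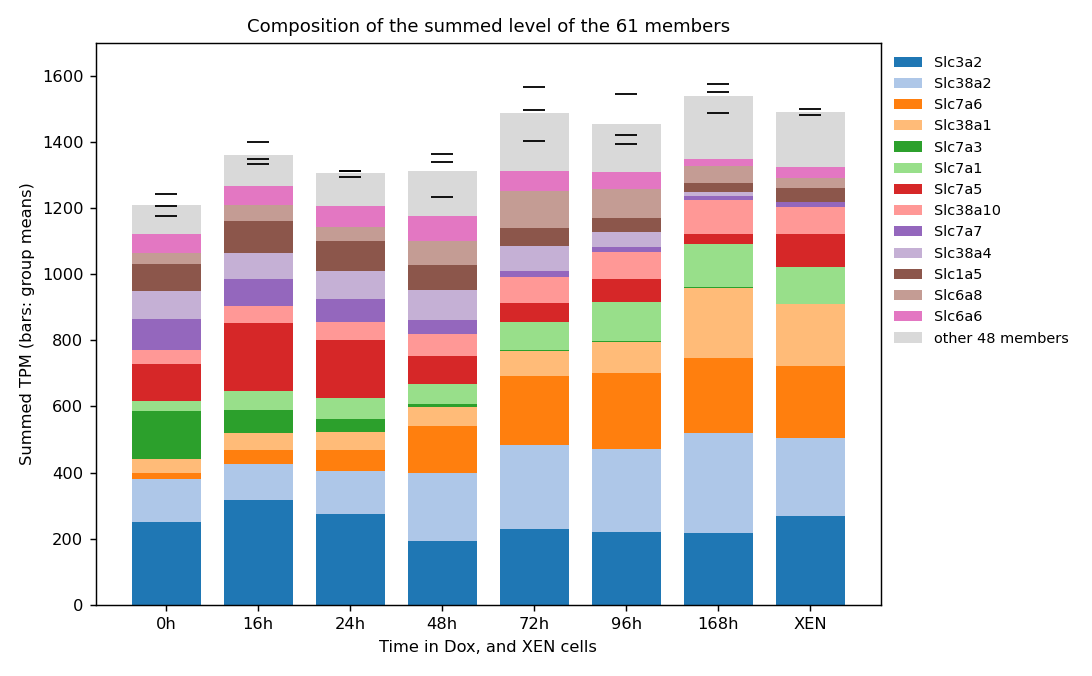
Summed TPM of the 61 members in each group (vertical axis, from 0), with bars stacked by the group mean of 13 members and of all others. Short black lines mark the sum in each library. The total lies between 1177 and 1575 TPM across 0 h, 168 h and XEN cells, while Slc7a3, Slc7a7 and Slc38a4 shrink and Slc7a6, Slc38a1 and Slc7a1 grow.

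Among the cationic carriers, which import arginine and lysine, Slc7a3 gave way to Slc7a1. Slc7a3 (mm10, chromosome X, 101079210 to 101086020) was at 132.1, 139.3 and 163.5 TPM in the libraries at 0 h, and at 1.34, 1.85 and 2.10 TPM at 168 h. Both XEN libraries were lower still, at 0.51 and 0.52 TPM. Each step of the fall was separate from the one before up to 96 h. The libraries held 62.2 to 75.5 TPM after 16 h, 35.4 to 48.8 TPM after 24 h and 7.54 to 9.21 TPM after 48 h. They held 3.39 to 4.10 TPM after 72 h and 1.92 to 2.56 TPM after 96 h. Slc7a3 was the member with the largest fall, by 1.08 on the log2 scale at 16 h (SE 0.13, adjusted p = 1.2e-05) and by 5.73 at 168 h (SE 0.13, adjusted p = 2.5e-17). Without library 3 of 0 h its fall at 16 h was 0.99 and just missed the fold limit. Slc7a1 (mm10, chromosome 5, 148327410 to 148399904) was at 29.6, 26.7 and 34.9 TPM at 0 h and at 125.9, 120.6 and 145.0 TPM at 168 h, with 109.3 and 112.3 TPM in XEN cells. Its libraries at 16 h, between 54.0 and 58.4 TPM, already lay above every 0 h library, with a log2 fold change of 0.88 that was below the fold limit. The rise was 1.07 at 24 h (SE 0.11, adjusted p = 3.5e-07), or 0.98 and under the limit without library 2 of 0 h, and 2.07 at 168 h (SE 0.11, adjusted p = 1.5e-12).

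The exchange between these carriers was not matched in time. Slc7a2, the third arginine carrier of this set, stayed low, with group means of 0.582, 2.82 and 3.22 TPM at 0, 48 and 168 h, and was called as higher at 24, 48, 72 and 168 h. The share of Slc7a3 in the sum of Slc7a1, Slc7a2 and Slc7a3 was 82.4% ± 1.1 (SD, n = 3) at 0 h, 53.7% ± 2.1 (SD, n = 3) at 16 h, 11.6% ± 2.0 (SD, n = 3) at 48 h and 1.30% ± 0.23 (SD, n = 3) at 168 h. The sum itself went from 176.0 TPM at 0 h to 73.3 TPM at 48 h and back to 135.5 TPM at 168 h, and the ranges of these groups (162.2 to 199.1, 67.4 to 78.3 and 125.4 to 151.5 TPM) did not overlap. The 48 h libraries had the lowest sum of any group. Slc7a4, a related protein of uncertain substrate, had group means of 1.60 TPM at 0 h and 0.227 TPM at 168 h and was called as lower at 168 h, a call lost without library 1 of 0 h (log2 fold change -0.85).

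**Figure D3:**
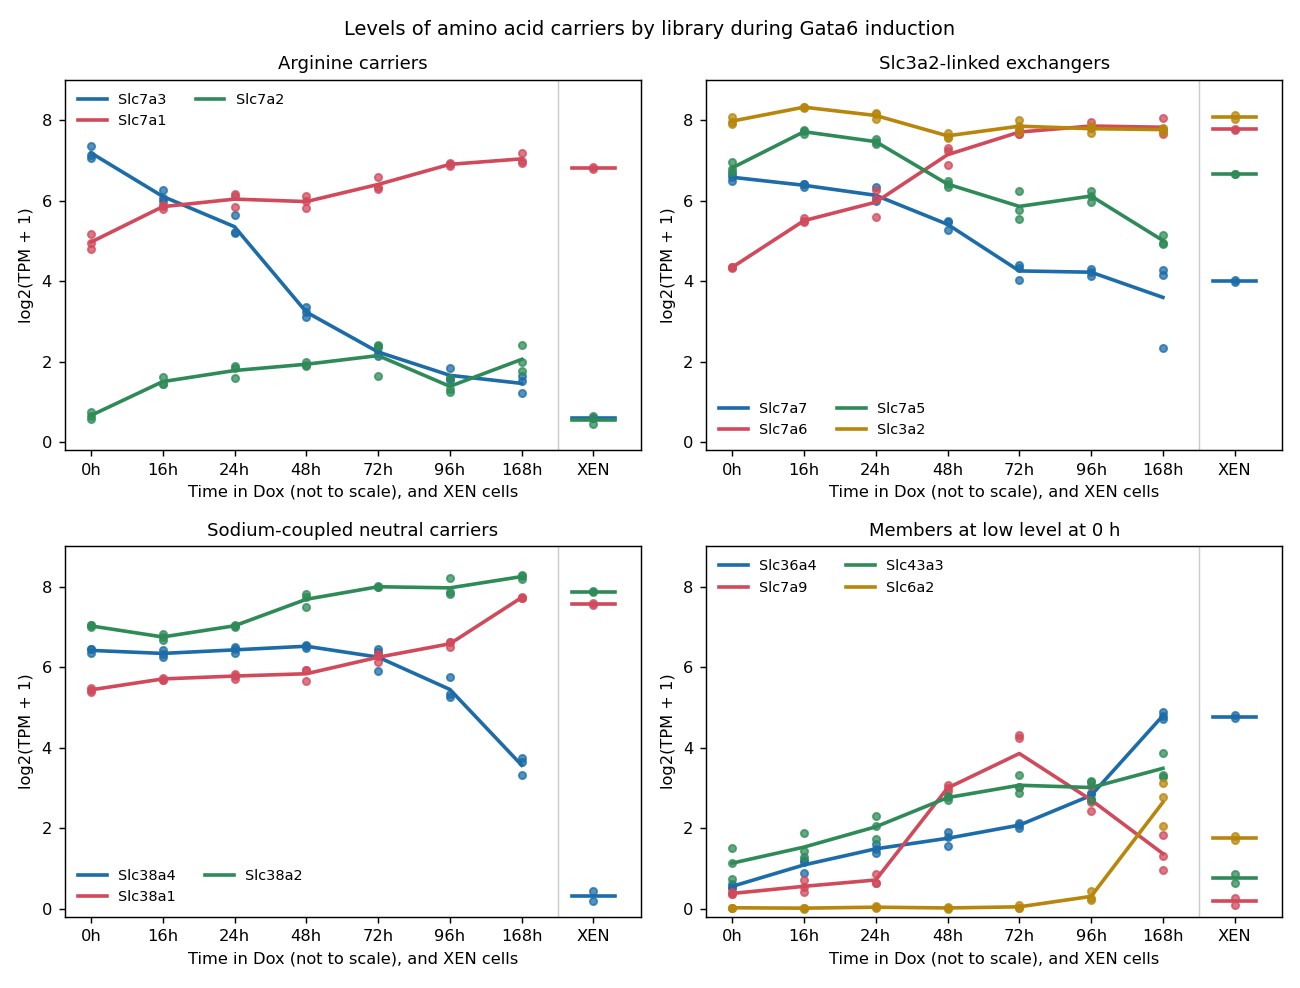
Level of 14 members as log2(TPM + 1) (vertical axes) by group (horizontal axes, times not to scale). Points are libraries, and lines or bars are group means of the log2 values. The means of Slc7a3 and Slc7a1 cross between 16 and 24 h and those of Slc7a7 and Slc7a6 between 24 and 48 h, while Slc7a9 peaks at 72 h. In libraries 1 and 2 of 24 h, Slc7a6 (75.1 and 64.2 TPM) already lay above Slc7a7 (65.9 and 62.2 TPM). In library 3 it lay below, at 47.4 against 80.1 TPM.

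The light chains that exchange cationic for neutral amino acids showed another replacement. Slc7a6 and Slc7a7 pair with the same heavy chain and carry similar substrates. Slc7a6 (mm10, chromosome 8, 106168857 to 106198706) was at 19.4, 19.0 and 19.4 TPM at 0 h, 46.1, 43.6 and 43.03 TPM at 16 h and 201.5, 215.0 and 262.8 TPM at 168 h. XEN cells were at 219.2 and 216.1 TPM, within the range of 168 h. It was the only member called as higher at 16 h (log2 fold change 1.16, SE 0.13, adjusted p = 3.5e-06) and had a log2 fold change of 3.48 at 168 h (SE 0.13, adjusted p = 1.4e-14). Nearly all of the rise was made by 72 h, where the mean was 207.2 TPM. Slc7a7 (mm10, chromosome 14, 54369442 to 54417780) was at 99.4, 95.4 and 89.0 TPM at 0 h, 43.04, 37.6 and 44.1 TPM at 48 h and 18.4, 16.9 and 4.09 TPM at 168 h. Slc7a7 fell by 1.17 on the log2 scale at 48 h (SE 0.31, adjusted p = 0.0032), where it was first called, and the fall was 2.98 at 168 h (SE 0.31, adjusted p = 3.9e-08).

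Library 3 of 168 h stood apart in the level of Slc7a7. In the same library, 8 visceral endoderm markers summed to 87.4 TPM, against 273.4 and 264.2 TPM in the others, and the feeder markers summed to 301.9 TPM, against 143.5 and 140.2 TPM. The part of either in the low value was not tested. Without this library the fall of Slc7a7 at 168 h was 2.36 and was still called. XEN cells held 15.3 and 14.8 TPM of Slc7a7, near the other libraries of 168 h. The share of Slc7a7 in the sum of Slc7a6 and Slc7a7 was 83.1% ± 0.8 (SD, n = 3) at 0 h, 23.04% ± 4.0 (SD, n = 3) at 48 h, 5.72% ± 3.66 (SD, n = 3) at 168 h and 6.48% ± 0.08 (SD, n = 2) in XEN cells. The sum of both was 113.8, 182.5, 247.7 and 239.5 TPM at 0, 48, 96 and 168 h.

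The sequences just upstream of this pair of genes are shown because the genes moved in opposite directions. They are the 250 bases before the most upstream RefSeq start of each gene (GRCm38.p6), of 5 starts for Slc7a7 and 2 for Slc7a6, 5′ to 3′ on the strand of the gene, at chr14:54417945-54418194 on the minus strand for Slc7a7 and chr8:106168604-106168853 on the plus strand for Slc7a6. Capitals mark a match to TGATGNAA, where N is any base, the core of the element bound by C/EBP and ATF proteins in genes of the amino acid response. Neither motif searched, TGATGNAA or GATAA, was found in the Slc7a6 window.
Slc7a7: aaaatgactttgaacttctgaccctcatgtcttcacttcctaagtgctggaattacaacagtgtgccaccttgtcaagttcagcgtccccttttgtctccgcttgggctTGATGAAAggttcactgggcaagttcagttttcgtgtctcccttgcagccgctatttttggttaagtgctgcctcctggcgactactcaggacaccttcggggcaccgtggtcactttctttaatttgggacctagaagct
Slc7a6: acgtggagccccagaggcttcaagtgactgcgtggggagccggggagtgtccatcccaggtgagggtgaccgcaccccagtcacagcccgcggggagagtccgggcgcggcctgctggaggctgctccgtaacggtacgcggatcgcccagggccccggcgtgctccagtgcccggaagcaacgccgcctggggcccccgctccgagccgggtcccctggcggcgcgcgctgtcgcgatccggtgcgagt

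The heavy chain itself was steadier than its light chains. Slc3a2, also known as the CD98 heavy chain, was among the 3 most abundant members in every group and was not called in any comparison, with group means between 194.0 TPM at 48 h and 318.3 TPM at 16 h. Its partner Slc7a5, which exchanges large neutral amino acids and brings in leucine, was at 108.7, 103.4 and 122.5 TPM at 0 h. All libraries of 16 h lay above these, at 212.0, 214.3 and 198.5 TPM, with a log2 fold change of 0.90 (SE 0.12, adjusted p = 3.5e-05) that stayed below the fold limit. By 168 h Slc7a5 was at 29.5, 34.1 and 30.001 TPM and was called as lower, by 1.81 (SE 0.12, adjusted p = 8.6e-11). XEN cells were at 99.5 and 99.2 TPM, 1.64 higher than 168 h (SE 0.14, adjusted p = 1.4e-08) and close to 0 h. Slc1a5, which exchanges glutamine for other neutral amino acids, also ended low. It was at 84.3, 79.0 and 83.1 TPM at 0 h and 27.7, 28.0 and 28.4 TPM at 168 h, a fall of 1.52 on the log2 scale (SE 0.06, adjusted p = 4.5e-14), and XEN cells stood between these groups at 40.6 and 41.8 TPM.

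Light chain Slc7a9, which takes up cystine and cationic amino acids and is best known from kidney and gut, had a transient course. It was at 0.28, 0.33 and 0.28 TPM at 0 h, 6.56, 7.49 and 6.96 TPM at 48 h and 18.9, 17.8 and 7.10 TPM at 72 h. It then stood at 5.29, 4.35 and 7.21 TPM at 96 h and 2.58, 1.47 and 0.94 TPM at 168 h, and XEN cells were at 0.20 and 0.07 TPM. Every library from 48 h on in Dox lay above every library at 0 h, and the peak at 72 h was not reached by library 3. Library 3 of 72 h was also the low library of that group for Slc1a4, Slc6a15 and Slc36a1, and its feeder markers summed to 163.3 TPM against 58.4 and 67.8 TPM. The log2 fold change of Slc7a9 was 2.62 at 48 h (SE 0.26, adjusted p = 9.2e-08) and 3.48 at 72 h (SE 0.26, adjusted p = 9.0e-10). It reached a mean of 1 TPM only in the 48 to 168 h groups, so it had to differ from 0 h to be tested. Between 48 and 168 h it fell by 1.63 (SE 0.26, adjusted p = 2.5e-05). Its heavy chain, Slc3a1, was not tested and had a highest group mean of 0.65 TPM at 48 h.

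The sequence upstream of a RefSeq start of Slc7a9 is shown because Slc7a9 was the member with the largest change under siOct4, described below. It is at chr7:35448842-35449036 on the plus strand (GRCm38.p6). This is the part of the 250 bases before the more upstream of 2 RefSeq starts that lies outside any GENCODE exon of the gene. The GENCODE gene begins at 35448796, so this stretch lies within the annotated gene and not upstream of it. Capitals mark both matches to GATAA, the core bound by GATA factors with its following A, of which the second is read on the other strand as TTATC.
Slc7a9: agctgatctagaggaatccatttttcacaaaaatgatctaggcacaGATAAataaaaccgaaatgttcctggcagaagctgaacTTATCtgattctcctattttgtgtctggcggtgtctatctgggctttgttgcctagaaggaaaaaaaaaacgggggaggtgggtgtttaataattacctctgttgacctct

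Such matches were common. Of the 61 members, 43 had a RefSeq promoter and together 64 windows of 250 upstream bases. GATAA on either strand was found in 13 of these windows (20.3%), from 8 members, beside 22.6% of the windows of all genes. TGATGNAA was found in 4 windows (6.25%), from 3 members, beside 3.45% of all windows. The motifs cannot overlap, and a match describes letters and not a bound site.

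The sodium-coupled Slc38 carriers were the family with the most members called at 168 h, 6 higher and 3 lower of 9 tested. This stands beside 39.1% of all genes called (22.6% higher and 16.5% lower). Slc38a1, Slc38a2 and Slc38a4, which take up glutamine or small neutral amino acids, lie next to each other on chromosome 15 (mm10, 96571418 to 97055956). Slc38a4, an imprinted gene, was at 86.8, 86.7 and 80.2 TPM at 0 h and still at 91.1, 92.8 and 88.7 TPM at 48 h. It was at 12.3, 11.4 and 9.04 TPM at 168 h and at 0.14 and 0.36 TPM in XEN cells, so that the groups did not overlap. The fall was 2.85 on the log2 scale at 168 h (SE 0.14, adjusted p = 6.1e-13) and XEN cells were lower than 168 h by a further 3.25 (SE 0.15, adjusted p = 5.1e-12). Slc38a1 was at 44.0, 40.6 and 42.4 TPM at 0 h, 97.7, 97.6 and 89.3 TPM at 96 h and 214.1, 210.0 and 210.6 TPM at 168 h, a log2 fold change of 2.29 (SE 0.07, adjusted p = 1.1e-15). XEN cells had 192.1 and 185.1 TPM of Slc38a1. Slc38a2 was already abundant at 131.0, 126.2 and 130.8 TPM and was at 291.0, 306.9 and 313.6 TPM at 168 h, a log2 fold change of 1.23 (SE 0.09, adjusted p = 1.3e-10).

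These neighbours turned at different times. By the call, Slc38a1 was first at 96 h, and Slc38a2 and Slc38a4 were called only at 168 h. By library values, Slc38a1 at 16 h, between 50.6 and 52.6 TPM, already lay above all of 0 h. Slc38a2 was below 0 h at 16 h, between 101.1 and 111.9 TPM. At 48 h, between 180.2 and 224.1 TPM, it lay above all of 0 h. The share of Slc38a4 in their sum was 33.0% ± 1.3 (SD, n = 3) at 0 h, 25.8% ± 1.8 (SD, n = 3) at 48 h, 2.08% ± 0.35 (SD, n = 3) at 168 h and 0.06% ± 0.039 (SD, n = 2) in XEN cells. The sum went from 256.2 TPM at 0 h to 526.3 TPM at 168 h.

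**Figure D4:**
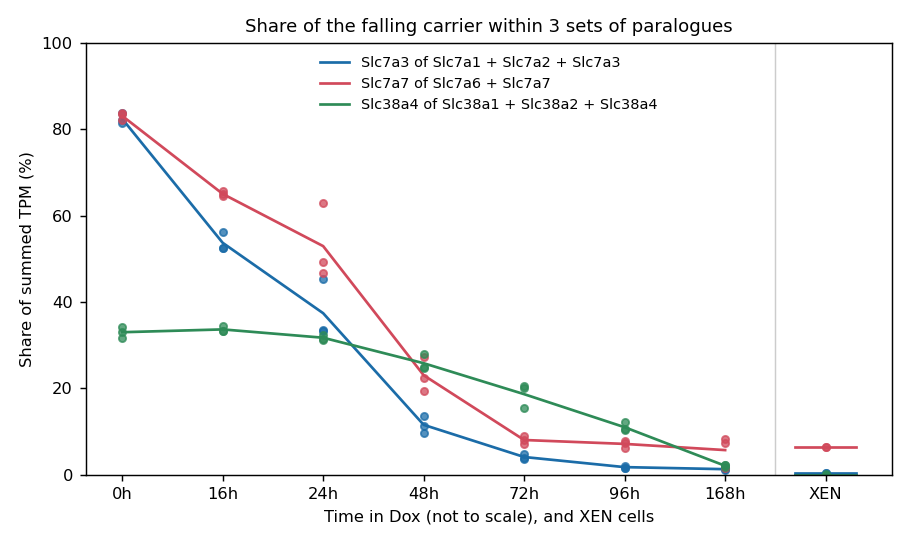
Share (vertical axis, percent of summed TPM) of Slc7a3, Slc7a7 and Slc38a4 within a set of related carriers, by group (horizontal axis, times not to scale). Points are libraries and lines or bars group means. Slc7a3 falls from 82.4% at 0 h to 11.6% at 48 h, whereas Slc38a4 is still at 25.8% there and reaches 2.08% at 168 h. The sets were chosen after the values were seen.

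The other Slc38 carriers were less abundant. Slc38a7, which releases glutamine from lysosomes, was at 19.0, 19.1 and 16.7 TPM at 0 h, 54.2, 58.0 and 49.7 TPM at 72 h and 45.4, 38.7 and 34.9 TPM at 168 h, and was called as higher from 48 h on. At 168 h its log2 fold change was 1.07, and 0.97 without library 1 of 168 h. Slc38a9, the lysosomal arginine sensor of mTORC1, was at 1.87, 2.09 and 2.81 TPM at 0 h and 6.400, 5.38 and 9.44 TPM at 168 h, with a log2 fold change of 1.29 (SE 0.18, adjusted p = 3.1e-06). Slc38a6 was at 3.69, 4.06 and 3.64 TPM at 0 h and 15.0, 14.8 and 13.6 TPM at 168 h (log2 fold change 1.69), and Slc38a10 at 43.7, 40.3 and 42.3 TPM and at 97.2, 113.5 and 96.6 TPM (1.26). Both have uncertain substrates. Slc38a3, a glutamine carrier, had group means of 3.13 TPM at 0 h and 0.558 TPM at 168 h and was called as lower from 96 h, the first of these calls being lost without library 1 of 0 h (-0.95) or library 2 of 96 h (-0.98). Slc38a5, another glutamine carrier, moved to and fro, with group means of 1.87 TPM at 0 h, 0.422 TPM after 16 h, 3.29 TPM after 48 h, 0.247 TPM after 168 h and 4.03 TPM in XEN cells. Its call at 16 h was lost without library 3 of 0 h (log2 fold change -0.88) or without library 1 of 16 h (-0.89).

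In the Slc6 family, carriers of taurine and creatine were the most abundant and ran different courses. Slc6a8, which takes up creatine, was at 28.7, 31.7 and 36.3 TPM at 0 h, 117.2, 111.0 and 102.9 TPM at 72 h and 45.1, 48.5 and 56.1 TPM at 168 h. It was called as higher from 48 to 96 h, with a log2 fold change of 1.75 at 72 h (SE 0.10, adjusted p = 8.9e-12), and was 0.62 above 0 h at 168 h (adjusted p = 1.0e-05), below the fold limit. XEN cells were at 29.0 and 30.5 TPM, near 0 h. Slc6a6, which takes up taurine, was at 60.98, 65.5 and 47.4 TPM at 0 h, 78.9, 76.2 and 68.0 TPM at 48 h and 20.2, 25.1 and 19.3 TPM at 168 h. It fell by 1.38 on the log2 scale at 168 h (SE 0.11, adjusted p = 8.1e-10) and was at 36.8 and 34.1 TPM in XEN cells. Slc6a15, a carrier of branched-chain amino acids and proline, was at 7.53, 5.46 and 6.53 TPM at 0 h, 26.1, 29.1 and 10.9 TPM at 72 h and 21.8, 24.6 and 16.3 TPM at 168 h. Its log2 fold change was 1.53 at 168 h (SE 0.26, adjusted p = 2.9e-05) and 1.00 at 96 h, where the call was lost without library 2 of 0 h (0.90) or without library 2 or 3 of 96 h (1.00 and 0.97, both under the limit).

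Slc6a9, a glycine carrier, was at 3.57, 3.23 and 5.38 TPM at 0 h, 1.19, 1.41 and 1.68 TPM at 72 h and 2.29, 3.05 and 2.99 TPM at 168 h, with 1.27 and 0.86 TPM in XEN cells. It was called as lower at 72 h (log2 fold change -1.04), a call lost without library 3 of 0 h (-0.86) or library 1 of 72 h (-0.97). Carriers of neurotransmitters, which are best known from neurons, were found at low levels. Slc6a2, for noradrenaline, was at 0.01 to 0.02 TPM at 0 h and at 7.66, 5.83 and 3.13 TPM at 168 h, with 2.49 and 2.26 TPM in XEN cells, and its log2 fold change at 168 h was 2.62 (SE 0.17, adjusted p = 4.5e-11). Slc6a11, for GABA, had group means of 0.0372 TPM at 0 h and 1.13 TPM at 168 h, and its call at 168 h was lost without library 3 of 0 h (0.98) or without library 1 or 2 of 168 h (0.90 and 0.91). Slc6a2 reached a mean of 1 TPM only at 168 h and in XEN cells, and Slc6a11 only at 168 h. Both had to differ to be tested.

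Among the proton-coupled carriers, Slc36a4, which carries proline and tryptophan, had the largest rise of any member at 168 h. It was at 0.45, 0.44 and 0.53 TPM at 0 h, 2.46, 2.73 and 1.95 TPM at 48 h, 6.39, 6.17 and 5.58 TPM at 96 h and 26.7, 25.1 and 28.7 TPM at 168 h. Each of these groups lay above the one before. XEN cells were at 25.5 and 27.3 TPM, within the range of 168 h, and the log2 fold change at 168 h was 4.24 (SE 0.11, adjusted p = 9.5e-17). Slc36a1, which exports small amino acids from lysosomes, was at 5.37, 4.93 and 4.07 TPM at 0 h, 11.2, 9.30 and 9.67 TPM at 168 h and 11.6 and 10.2 TPM in XEN cells. It was called only in XEN cells against 0 h (log2 fold change 1.04), and this call was lost without library 3 of 0 h (0.95) or library 1 of XEN cells (0.95).

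The Slc43 facilitators showed where induced cells and XEN cells parted. Slc43a3, which carries purine nucleobases in spite of its family, was at 1.21, 1.84 and 0.68 TPM at 0 h, 5.93, 5.86 and 5.54 TPM at 48 h and 8.95, 13.7 and 8.66 TPM at 168 h, with a log2 fold change of 2.36 (SE 0.21, adjusted p = 6.5e-09). XEN cells had 0.83 and 0.56 TPM, lower than 168 h by 2.73 on the log2 scale (SE 0.24, adjusted p = 2.7e-08). Slc43a2, for large neutral amino acids, was at 6.28, 5.67 and 7.51 TPM at 0 h and 9.37, 7.98 and 7.50 TPM at 168 h but at 1.41 and 1.71 TPM in XEN cells. It was lower there than at 168 h by 1.86 (SE 0.15, adjusted p = 1.1e-08). Slc43a1, for similar substrates, was at 4.58, 3.49 and 1.66 TPM at 0 h, 3.84, 6.87 and 5.59 TPM at 168 h and 8.95 and 8.30 TPM in XEN cells, and its call in XEN cells against 0 h (log2 fold change 1.25) was lost without library 3 of 0 h (0.94).

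XEN cells, the reference for the end of the course, did not differ by the call from 168 h in any of the 5 leading carriers of 168 h. Against 0 h they had 10 members higher and 8 lower, or 50.0% of those tested beside 37.6% of all genes (18.9% higher and 18.7% lower). Against 168 h, 2 members were higher (Slc7a5 and Slc38a5) and 5 lower (Slc38a4, Slc43a2, Slc43a3, Slc7a2 and Slc7a9), or 19.4% beside 13.9% of all genes (4.73% and 9.17%). With median-of-ratios scaling there were also 2 members higher and 5 lower than at 168 h, beside 13.2% of all genes (5.96% and 7.26%). The median over all genes then went from -0.14 to -0.03, and the part of all called genes that were higher from 34.0% to 45.1%. The call of Slc7a9 was lost without library 1 of 168 h (log2 fold change -0.95). XEN cells also differ from the induced cells in strain, medium and origin, and these cannot be told apart from cell type. Between 48 and 168 h of Dox, 6 members were higher and 10 lower, or 44.4% beside 21.8% of all genes (12.6% and 9.19%). With median-of-ratios scaling these counts were 4 and 10, beside 1514 higher and 1604 lower of 15057 genes. Among the members higher at 168 h than at 48 h was Slc1a4, an exchanger of alanine, serine and cysteine. It was called in no comparison with 0 h. It was at 13.5, 12.9 and 12.9 TPM at 0 h, 6.18, 6.37 and 9.41 TPM at 48 h and 20.2, 24.0 and 22.5 TPM at 168 h, a log2 fold change of 1.499 between 48 and 168 h (SE 0.34, adjusted p = 0.0008).

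Of the members that were tested and never called, Slc3a2 and Slc1a3 reached 10 TPM. Slc1a3, a carrier of glutamate and aspartate, had group means from 6.09 TPM at 168 h to 13.1 TPM at 24 h, and 3 others stayed at low levels. The 25 members not tested had group means up to 0.88 TPM, and Slc6a18 and Slc7a12 were at 0 in every library. Among those not tested was Slc7a11, the exchanger of cystine for glutamate, at 0.32 TPM or less in every library. Of the 8 tested members under 1 TPM at 0 h, which passed the filter through a group where they were higher, 4 were called at 168 h, namely Slc36a4, Slc6a2, Slc6a11 and Slc7a2. These had to differ to be tested, as did Slc7a9, which was called from 48 to 96 h.

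The effect of Oct4 on the carriers was examined after 48 h of Dox. The siRNA table lists only genes that the study had classed as responsive to GATA6, on the induction libraries, so it holds members chosen for their change and lacks 10 of the 36 tested above. In limma on log2(TPM + 1) without pairing, with a fold limit of 0.5 on the log2 scale, 1 of the 26 members was called, as lower with siOct4 (3.85%), beside 2.67% of the 6264 genes tested (0.942% higher and 1.72% lower). Control and knockdown libraries with the same number were taken as pairs, though the labels give only a number. Whether consecutive numbers belong to 1 experiment is not given. With the number as a block 6 members were lower and 1 higher, beside 8.57% of all genes (2.43% higher and 6.15% lower). The median log2 difference was -0.32 over the members and -0.12 over all genes. Median-of-ratios scaling moved the median of all genes to 0.01 and the median of the members to -0.18, and the higher share of all genes called from 35.3% to 48.5%. Values of the siRNA series were normalised apart from the induction series and are not set beside it in any test.

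Slc7a9 was the member that changed in both fits. Control libraries 1 to 6 held 7.82, 10.8, 5.69, 5.87, 5.65 and 9.21 TPM of it, and the siOct4 libraries of the same numbers 2.53, 2.05, 2.16, 1.79, 2.62 and 1.67 TPM. The groups did not overlap and all 6 pairs were lower, by 0.88 to 1.95 on the log2 scale. How many of all genes showed no overlap, or 6 pairs of 1 sign, was not counted, here or for the members below. The fall was 1.41 (SE 0.20, adjusted p = 0.0017), or adjusted p = 0.0011 with the block. When libraries with consecutive numbers were averaged, which leaves 3 values per group, it was 1.42 with adjusted p = 0.11 and no gene of the table was called, with 483 genes at an unadjusted p under 0.05 in limma. In the same libraries the 3 visceral endoderm markers of the table summed to 22.1 to 78.4 TPM with siCTL and 10.4 to 18.5 TPM with siOct4, lower in 6 of 6 pairs. The 10 PrE and XEN markers summed to 2468 to 7073 TPM and 1563 to 3411 TPM, also lower in 6 of 6 pairs, as were the 8 parietal endoderm markers at 4285 to 6457 TPM and 2982 to 4994 TPM, and Gata6 was at 92.6 to 198.5 TPM and 51.2 to 130.2 TPM. The 5 trophectoderm markers of the table summed to 12.8 to 27.6 TPM with siCTL and 19.1 to 96.3 TPM with siOct4, higher in 6 of 6 pairs. The part of these in the change of Slc7a9 or of the other members was not tested.

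**Figure D5:**
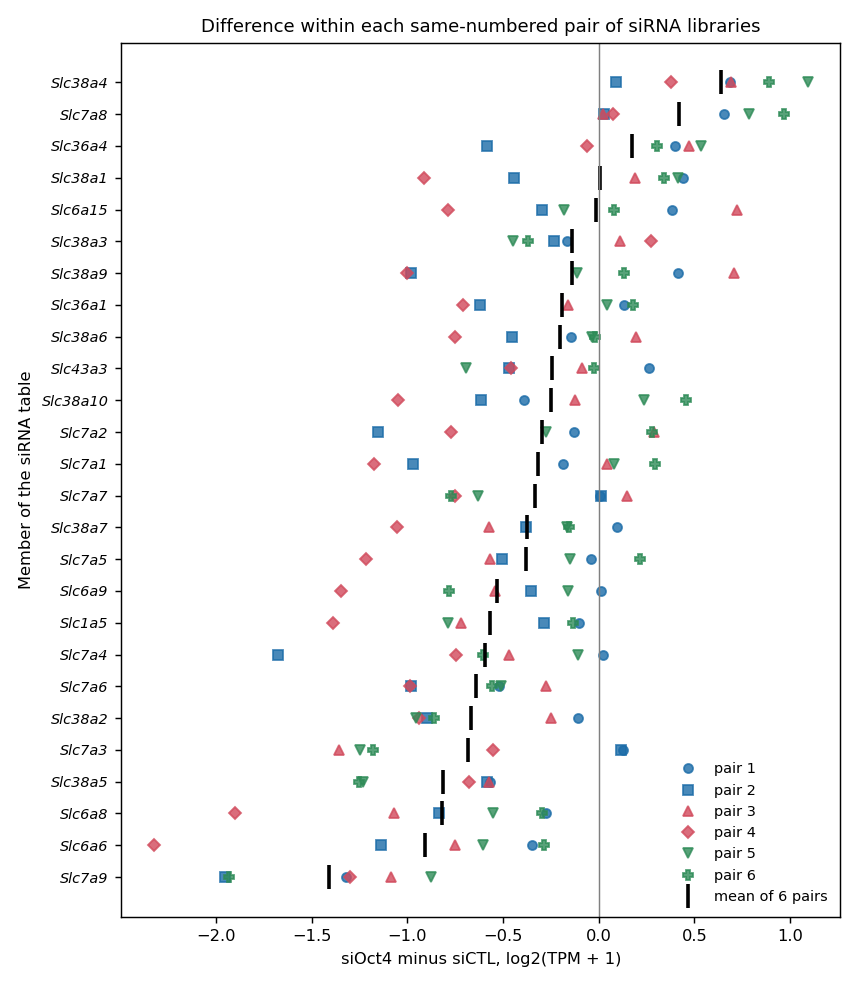
Difference of siOct4 minus siCTL in log2(TPM + 1) (horizontal axis) within each of the 6 same-numbered pairs of libraries (symbols) for the 26 members of the siRNA table (rows), with the mean as a black bar. All pairs lie below 0 for Slc7a9, Slc6a6, Slc6a8, Slc38a5, Slc38a2, Slc7a6 and Slc1a5, and above 0 for Slc38a4 and Slc7a8, while the pairs of the other members lie on both sides. The median difference over all genes was -0.12, and the share of all genes with every pair on 1 side was not counted.

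With the block, 6 further members were called. Slc38a4, the imprinted carrier that is high in ES cells, was the one that was higher, at 85.1 to 149.4 TPM (median 135.8) with siCTL and 138.0 to 283.8 TPM (median 207.8) with siOct4, by 0.64 (SE 0.13, adjusted p = 0.012). Slc7a6 was at 119.9 to 295.1 TPM (median 217.1) with siCTL and 99.0 to 175.8 TPM (median 128.1) with siOct4, lower by 0.64 (SE 0.12, adjusted p = 0.0065). Slc38a2 was at 154.0 to 447.6 TPM (median 356.4) with siCTL and 129.4 to 269.4 TPM (median 212.4) with siOct4, lower by 0.67 (SE 0.13, adjusted p = 0.0098). These ranges overlap between groups, and only within pairs were all 6 differences of 1 sign. Slc6a8 was at 71.3 to 200.3 TPM with siCTL and 37.5 to 67.8 TPM with siOct4, with no overlap, and was lower by 0.82 (SE 0.20, adjusted p = 0.024). Slc6a6 was lower by 0.91 (SE 0.24, adjusted p = 0.037) and Slc38a5, at a mean of 2.10 TPM with siCTL and 0.737 TPM with siOct4, by 0.81 (SE 0.17, adjusted p = 0.011). Without the block none of these 6 was called, with adjusted p-values from 0.078 to 0.38.

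Libraries siCTL 3 and siCTL 4 stood apart from the other controls, the first low and the second high for long genes, with slopes of -0.69 and 0.62 in log2 per 10-fold exon length, beside -0.57 to 0.32 in the other libraries of both groups. Without pairs 3 and 4 the block fit called 4 members, Slc38a2, Slc38a5, Slc7a6 and Slc7a9. The share of all genes called in that fit is not given here. With the length trend removed the block fit called 2 members higher and 5 lower, beside 10.2% of all genes (5.25% and 4.90%). Slc7a8 was then called and Slc38a2 was not. Both alternatives were chosen after the data had been seen. The feeder markers of the siRNA table, 6 of 12, summed to 27.2 to 213.6 TPM with siCTL and 28.3 to 220.3 TPM with siOct4, and their part was not tested. Slc7a3 showed how far the pairs themselves differed. It was at 28.6 and 29.99 TPM in siCTL libraries 1 and 2 and 31.3 and 32.6 TPM in siOct4 libraries 1 and 2, but at 7.78 to 12.05 TPM and 3.23 to 4.99 TPM in libraries 3 to 6 of these groups. It was lower with siOct4 in 4 of 6 pairs and was not called (adjusted p = 0.67, or 0.095 with the block). Slc7a1 and Slc38a1, which rose during induction, were not called, with differences of -0.32 (SE 0.30) and 0.01 (SE 0.29).

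Genes that use or sense amino acids were followed beside their carriers, by lists chosen with earlier results of these data known. The counts at 168 h stand beside 22.6% of all genes higher and 16.5% lower, or 39.1% in either direction. At 168 h, 0 of 17 enzymes of serine, glycine, threonine and one-carbon metabolism were higher and 12 lower. Those with the largest changes were Tdh, the threonine dehydrogenase of mouse ES cells, at 339.1 TPM at 0 h and 15.4 TPM at 168 h, and Gldc and Amt of the glycine cleavage system, at 108.2 and 80.3 TPM at 0 h and 7.47 and 5.68 TPM at 168 h. Of 16 tested enzymes of arginine, cystine and glutathione metabolism, 1 was higher and 9 lower, with Cth, which makes cysteine from cystathionine, at 149.0 TPM at 0 h and 4.27 TPM at 168 h. The higher gene was Sat1, which acetylates polyamines, at 53.8 and 498.0 TPM. Of 9 branched-chain amino acid enzymes, 0 were higher and 4 lower, led by the aminotransferase Bcat1 at 135.9 and 11.6 TPM. Median log2 fold changes of these lists were -1.70, -1.30 and -0.67, beside 0.09 over all genes. XEN cells held 0.248, 28.8 and 2.68 TPM of Tdh, Gldc and Amt, and 12.3, 206.2 and 63.6 TPM of Cth, Sat1 and Bcat1. Against 168 h, XEN cells had 5, 3 and 1 genes of these lists higher and 1, 1 and 0 lower. This stands beside 4.73% of all genes higher and 9.17% lower.

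The other lists, apart from the helper proteins, held calls in both directions. Of 15 tested enzymes of glutamine, glutamate, aspartate and proline metabolism, 2 were higher and 5 lower. Prodh, which oxidises proline, was at 14.9 TPM at 0 h and 0.676 TPM at 168 h. Asparagine synthetase Asns was at 252.5 and 55.5 TPM, and ornithine aminotransferase Oat at 27.6 and 139.3 TPM. Of 32 genes of mTORC1 and its amino acid sensing arm, 8 were higher and 4 lower, a share near that of all genes. Rragb, a Rag GTPase, was at 15.3 TPM at 0 h and 0.812 TPM at 168 h. The Sestrin family member Sesn3 was at 6.55 and 39.1 TPM. Of 15 tested genes of the amino acid response, Atf4 and its targets, 5 were higher and 4 lower, with Atf3 at 2.86 and 133.5 TPM and Ddit3 at 12.9 and 73.0 TPM among the former. Of 19 cytosolic aminoacyl-tRNA synthetases, 1 was higher, Wars, and 6 lower. Of 18 tested amino acid carriers of other families, 8 were higher and 3 lower, led by Ctns, the lysosomal cystine exporter, at 5.16 TPM at 0 h and 141.2 TPM at 168 h. Of 4 tested helper proteins of the transporters, 1 was higher. XEN cells held 0.202, 133.6 and 165.5 TPM of Prodh, Asns and Oat, and 1.31 and 29.2 TPM of Rragb and Sesn3. They held 86.7, 41.1 and 30.7 TPM of Atf3, Ddit3 and Ctns. With siOct4, 1 serine and glycine enzyme and 1 glutamine and glutamate enzyme were lower, and 0 genes of the other lists were called in limma without the block. With the block, 2 genes each were lower in these lists, in the mTORC1 list and among the carriers of other families, and 0 in the others, with 0 higher in any list.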

How the data were processed

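RNA-seq of poly(A) RNA was read from TPM tables as deposited. The authors aligned stranded paired-end reads to mm10 with STAR, estimated TPM with RSEM and left out libraries that lay apart in a principal component analysis, and tool versions and the annotation are not given in the sources used here. The induction table held 44915 rows, and 60 symbols on more than 1 row were each reduced to their most abundant row. The siRNA table was limited to 6275 genes classed by the study as responsive to GATA6, with column sums of 274527 to 355895 TPM. It also held group means and the classes of the authors' own tests, which were not used. Read counts cannot be had from TPM, so depth and counting error are unknown. In place of depth, 12034 to 13109 genes per induction library and 5483 to 6142 per siRNA library were at 1 TPM or more.

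Groups came from the labels. Genes whose mean reached 1 TPM in any group entered the test, made with limma 3.58.1 (R 4.3.3, trend and robust) on log2(TPM + 1), with Benjamini-Hochberg adjustment over all genes tested. The procedure was tested on simulated data. Positions are from GENCODE M21, and promoter sequences are from RefSeq (GRCm38.p6). Same-numbered siCTL and siOct4 libraries deviated together in 6 of 6 pairs (mean r = 0.33 across genes, range 0.24 to 0.71, against -0.06 for other numbers), and the study also treats the day 2 knockdowns as pairs. Alternatives were scaling by the median of ratios, other filters, pseudocounts and limits, a replicate block, averaging of consecutive siRNA libraries, and leaving out each library.

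Members, marker lists and pathway lists were chosen with earlier results of these data known. Members called in at least 1 of 10 comparisons were named with library values where a group mean reached 5 TPM and otherwise with group means, and members never called with their range where it reached 10 TPM. Of each pathway list, at most 3 called genes at 5 TPM or more with the largest change at 168 h were named. Slc3a1 and Slc7a11 fall outside this rule and were named after their values were seen. The sets of related carriers were chosen after their values were seen. The values of 1 member are not reported here.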

Additional observations from a re-analysis of the deposited data

Results flagged for a closer look

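In the siRNA series, 1 library lay far from the other 5 of its group for 6 of the 52 sets of values screened, where chance gives about 2.6. All 6 were in siCTL libraries 3 or 4, and the cause was not tested. On the log2(TPM + 1) scale, siCTL library 3 was low for Slc36a4 at 1.24 (others 1.99 to 2.43), for Slc38a4 at 6.43 (others 7.06 to 7.23) and for Slc6a6 at 4.32 (others 5.82 to 6.67). Library 4 of siCTL was high for Slc38a10 at 6.15 (others 4.90 to 5.28), for Slc6a15 at 4.96 (others 3.37 to 3.95) and for Slc6a8 at 7.65 (others 6.18 to 6.49).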

How the results depend on the processing

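Of 115 calls of a member in a comparison, 0 reversed under any alternative, and the cause of the changes given here was not tested. With no fold limit the members called numbered 15 at both 16 and 24 h and 22 at both 48 and 72 h. They numbered 28 at 96 h, 29 between 168 and 48 h and 18 between XEN cells and 168 h, since that limit alone was dropped. Of all 15057 genes, 16 h then had 1191 higher and 758 lower, 24 h had 2511 and 1782, and 48 h had 4164 and 3929. The 72 h fit called 5108 and 4765, and the 96 h fit 5189 and 4949. Between 168 and 48 h there were 5480 and 4135, and between XEN cells and 168 h 2676 and 4849. For 72 h and for XEN cells against 168 h, the share of members called was no clear excess over that of all genes. With a minimum mean of 5 TPM, 2 members were called at 16 h and 3 at 24 h, since fewer members were tested. With a pseudocount of 0.1 the count was 8 at 24 h and 12 between XEN cells and 168 h. The shares of all genes in both settings are not given here. Median-of-ratios scaling lost 6 of 115 calls, namely Slc7a1 at 48 h (0.96) and between 168 and 48 h (0.92), Slc6a15 at 96 h (0.93) and between 168 and 48 h (0.92), Slc38a7 (0.89) and Slc6a11 (0.94) at 168 h.

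Leaving out each library in turn gave 1 to 4 members called at 16 h (1 without library 3 of 0 h) and, from 24 to 168 h in order, 5 to 6, 10 to 12, 13 to 16, 12 to 15 and 22 to 25. It gave 14 to 18 between 168 and 48 h, 16 to 20 in XEN cells against 0 h and 6 to 9 against 168 h. For siOct4 the range was 1 to 4, with 4 without library 3 of siCTL. The shares of all genes in the fits without 1 library are not given here.

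For siOct4, the replicate block called 7 members, beside 8.57% of all genes. Median-of-ratios scaling called 2 members, beside 144 higher and 153 lower of 6264 genes. Averaging of consecutive libraries called 0 members (7 at an unadjusted p under 0.05 in limma). Alternatives added after the data were seen called 3 members with the length trend removed and 7 with this and the replicate block. The latter stands beside 10.2% of all genes. They called 2 members without pairs 3 and 4, and 4 without these pairs and with the replicate block. Without pairs 1 to 6 in turn and with the replicate block, 5 to 8 members were called (7, 5, 5, 7, 6 and 8). The shares of all genes in the other fits are not given here. In the induction series the libraries share only a number (mean r = 0.03 over 77 same-numbered pairs, 16 of them over 0.1), and the replicate block lost 1 of 115 calls, Slc36a1 in XEN cells against 0 h (0.98). TPM keep no depth, so changes of members near 1 TPM cannot be given a counting error.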
